A study of Mus musculus with 8 samples.

Results

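SV-LEC is a mouse lymphatic endothelial cell line from mesenteric adventitial tissue, immortalized with SV40. RNA was sequenced from 8 libraries of these cells: 4 came from cells left untreated and 4 from cells given 10 ng/ml TGFβ1 for 72 h. All 8 share the line and the growth medium with serum, and the treatment is the difference named by the labels. The genes described here were almost silent before treatment and counted after it. They were chosen by raw read counts: at most 3 in each untreated library and at least 10 in each TGFβ1 library. These limits were met by 91 of 55471 rows of counts (0.164%), and 9 were left out by name, among them Acan, Adamtsl2, Ccl17, Col17a1, Fermt1, Kcnj15, Kcnn3 and Kcnn4. The remaining 82 genes (0.148%) are the subject, and the reverse limits were met by 12 rows (0.0216%). Since their counts in both groups chose them, the difference between the groups is a description for them and carries no test.

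TGFβ1 is a secreted cytokine that binds type I and type II receptor kinases and signals through SMAD transcription factors. In endothelial cells it can drive a shift toward a mesenchymal state, in which junction proteins give way to contractile and matrix proteins. A gene held silent in a cell lineage often has closed chromatin or lacks an activator. A transcript that appears from near zero can therefore be a different event from a rise of one already made. Which of these applies was not tested here, and only 7 of the 82 genes had no untreated read. Bulk RNA does not show which cells carry a transcript: a low level in every cell and a high level in a few cannot be told apart here.

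The libraries held 18952504 to 26386941 counts, and pairs of libraries within a group differed by more than counting noise (chi-square per degree of freedom 2.37 to 7.84). The 4 libraries of a group are technical replicates of the line according to the methods of the study, so every SD and p below covers technical spread. Of 17 endothelial markers, 8 had at most 3 counts in every library: Ccl21a, Tie1 and Erg were at 0, and the lymphatic markers Prox1 and Lyve1 reached at most 2 and 3 counts. Pdpn, Flt4, Kdr and Nrp2 were expressed, with 342 ± 19.5, 21.6 ± 1.23, 11.6 ± 0.548 and 66.4 ± 1.49 CPM in untreated cells (mean ± SD, n = 4). CPM is the count per 1000000 counts of library size, with library sizes normalized by the TMM method. Of 16 leukocyte markers, 9 had at most 3 counts in every library: Ptprc had at most 1, and Adgre1 and Tyrobp were at 0. Cd14, Cd68 and Cd74 were expressed, at 10.2 ± 0.587, 6.96 ± 0.863 and 1.54 ± 0.405 CPM in untreated cells. The muscle factor Myod1 was at 0.

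For 6 of the 82 genes the reference bases just before the start of transcription are shown, because these are the sequences from which a silent gene is started. They are the 6 highest in CPM after TGFβ1 whose first RefSeq start lies within 10 bases of the annotated 5′ end. Each line gives 250 bases ending at the base before the start, read 5′ to 3′ on the strand of the gene, from RefSeq on GRCm38.p6. Capitals mark matches, on either strand, to the E-boxes CAGCTG and CACCTG, the AP-1 site TGACTCA, the TATA box TATAAA, the SMAD motifs CAGACA, GTCTAGAC and GGCGCC, the TEAD motif GGAATG, the RUNX motif TGTGGT, the ETS motif CCGGAA or the SRF CArG box.
Fbxo40 (chr16:36990468-36990717, minus strand): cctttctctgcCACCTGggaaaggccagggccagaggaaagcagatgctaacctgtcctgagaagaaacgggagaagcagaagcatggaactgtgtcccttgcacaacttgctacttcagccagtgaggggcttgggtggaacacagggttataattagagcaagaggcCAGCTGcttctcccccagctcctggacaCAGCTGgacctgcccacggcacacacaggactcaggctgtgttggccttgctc
Rgs4 (chr1:169747643-169747892, minus strand): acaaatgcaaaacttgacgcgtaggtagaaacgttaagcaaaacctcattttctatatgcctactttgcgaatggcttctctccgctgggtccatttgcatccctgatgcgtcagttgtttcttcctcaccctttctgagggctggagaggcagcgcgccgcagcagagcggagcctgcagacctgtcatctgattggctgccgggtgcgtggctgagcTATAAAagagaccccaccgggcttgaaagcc
Shisal2b (chr13:104863894-104864143, minus strand): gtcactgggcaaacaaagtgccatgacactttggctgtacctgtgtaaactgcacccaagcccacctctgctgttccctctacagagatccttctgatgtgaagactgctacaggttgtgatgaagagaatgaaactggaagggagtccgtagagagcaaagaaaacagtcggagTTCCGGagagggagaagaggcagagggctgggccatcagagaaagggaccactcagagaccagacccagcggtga
H1f4 (chr13:23622559-23622808, minus strand): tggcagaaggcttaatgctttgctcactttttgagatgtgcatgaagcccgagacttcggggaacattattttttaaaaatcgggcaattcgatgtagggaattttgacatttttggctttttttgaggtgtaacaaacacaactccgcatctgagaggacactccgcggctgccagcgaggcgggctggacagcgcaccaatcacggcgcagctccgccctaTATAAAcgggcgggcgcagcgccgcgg
Lrrc15 (chr16:30283255-30283504, minus strand): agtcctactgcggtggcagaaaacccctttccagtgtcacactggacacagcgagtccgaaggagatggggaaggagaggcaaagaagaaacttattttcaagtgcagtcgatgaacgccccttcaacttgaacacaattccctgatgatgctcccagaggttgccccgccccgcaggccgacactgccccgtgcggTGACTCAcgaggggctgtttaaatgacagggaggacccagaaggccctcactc
Glyat (chr19:12633058-12633307, plus strand): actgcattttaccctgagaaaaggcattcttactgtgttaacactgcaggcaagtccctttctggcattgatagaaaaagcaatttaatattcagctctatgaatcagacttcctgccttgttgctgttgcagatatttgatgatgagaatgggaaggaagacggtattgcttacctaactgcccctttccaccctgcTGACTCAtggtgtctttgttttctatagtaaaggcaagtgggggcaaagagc

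Fbxo40 holds 3 E-boxes, with CACCTG beginning 239 bases and CAGCTG 81 and 53 bases before the start. Among 27025 RefSeq promoters, 17.1% hold CACCTG and 12.8% hold CAGCTG in the same 250 bases. Lrrc15 and Glyat each hold the AP-1 letters, beginning 53 and 52 bases before the start, which 4.43% of all promoters hold. TATAAA begins 31 bases before the start of Rgs4 and 27 before that of H1f4, and is in 12.97% of all promoters. Shisal2b holds CCGGAA on the opposite strand, beginning 75 bases before its start (12.2% of all promoters). None of the 6 holds any of the SMAD motifs, the TEAD or RUNX motif or the CArG box in this window. Of all promoters 17.1% hold CAGACA, 0.174% GTCTAGAC, 9.54% GGCGCC, 12.6% the TEAD motif, 14.2% the RUNX motif and 1.40% the CArG box. These are matches of letters and not measured binding, and a summary over the genes is void because 52 of the 82 (63.4%) have a sequence in the table.

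The 82 genes were close to the detection limit before treatment. Their 328 untreated values (82 genes in 4 libraries) were 0 in 131 cases, 1 in 99, 2 in 59 and 3 in 39. After TGFβ1 their mean levels ran from 0.526 to 4.52 CPM with a median of 0.962, and 37 genes reached 1 CPM. These are low levels: the highest of them lies at percentile 22.0 of mean CPM among the 13818 genes that passed edgeR's filter on low counts and were tested, and the median gene at percentile 8.22. Summed over the 82 genes, the untreated libraries held 3.49 to 4.06 CPM and the TGFβ1 libraries 105 to 119 CPM. TGFβ1 replicate 2 had the highest sum, and it was the highest of the 4 TGFβ1 libraries for 34 of the 82 genes.

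Folds are given against a floor of 3 counts per untreated library, 0.135 CPM on average. Above this floor the genes lay 3.89 to 33.5-fold, with a median of 7.12-fold, and 20 genes were at 10-fold or more. Since no untreated count passed 3, this value is a lower bound on the observed fold of every gene. For the 7 genes with no count in any untreated library no ratio can be given, and the bound is the only value. Among them the fold was at least 33.5 for Fbxo40, 10.1 for Fat2, 7.21 for Rgs14, 6.62 for Pm20d1, 5.66 for Sec14l4 and 4.52 for Tbx10. The pooled untreated libraries then allow each of these genes up to 0.0333 CPM, from 3 counts over all 4. The other 75 genes had 1 to 12 untreated counts over the 4 libraries, and for these the ratio of pooled counts, scaled to library size, is given with an exact 95% interval that covers counting error only. Low untreated and high treated counts chose the genes, so these ratios lean upward by an amount the intervals do not hold. Of the 82 genes, 73 are annotated as protein coding, 5 as antisense RNAs, 2 as lincRNAs and 2 as pseudogenes.

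**Figure D1:**
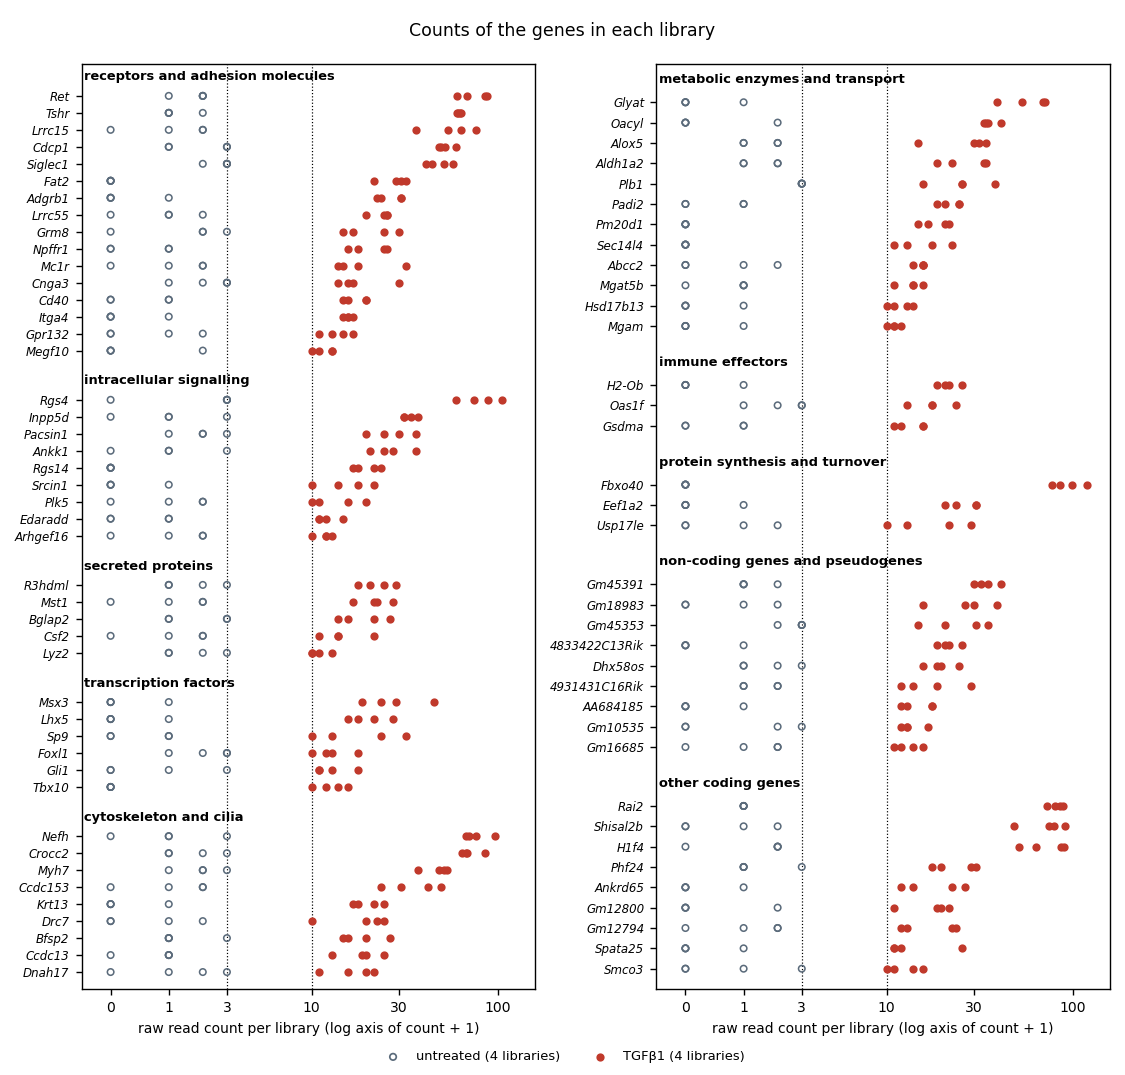
Raw read counts of 81 of the 82 genes in each library, grouped by role, on a log axis of count + 1. Open circles are the 4 untreated and filled circles the 4 TGFβ1 libraries, and dotted lines mark the limits of 3 and 10 counts that chose the genes. Fbxo40, Rgs4 and Nefh reach the highest counts, while Lyz2, Mgam and Megf10 lie just above the limit of 10.

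For the description the genes were sorted by hand into roles after their values had been seen. The 17 receptors, adhesion molecules and channels ran from 0.559 CPM (Megf10, an engulfment receptor) to 3.59 CPM (Ret) after TGFβ1. Ret, the receptor tyrosine kinase for the GDNF ligands, had 2, 2, 1 and 2 counts in untreated replicates 1 to 4 and 69, 88, 61 and 86 in TGFβ1 replicates 1 to 4. Its level after treatment was 3.59 ± 0.551 CPM (SD, n = 4), a ratio of 45.9 (95% interval 22.0 to 115). Ret is known from enteric and other neurons. It stood well clear of the limit of 10 in every TGFβ1 library, while its untreated counts lay near the limit of 3.

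Tshr, the thyrotropin receptor, had 1, 2, 1 and 1 untreated counts and 61, 63, 62 and 64 after TGFβ1, or 2.98 ± 0.347 CPM, 22.0-fold above the floor. Among other G protein-coupled receptors, Mc1r, the melanocortin receptor of pigment cells, had 2, 2, 1 and 0 counts untreated and 14, 33, 15 and 18 treated, with 1 library well above the rest. Adgrb1, an adhesion receptor that binds apoptotic cells and is listed among the neuronal markers, had 0, 0, 1 and 0 counts and then 24, 31, 23 and 31. Grm8 (a glutamate receptor), Npffr1 (a neuropeptide FF receptor) and Gpr132 were lower, with 1.01, 0.997 and 0.664 CPM after TGFβ1. The TGFβ1 counts of Tshr differed little between libraries, whereas those of Mc1r spread more than counting noise gives (chi-square per degree of freedom 4.28).

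Lrrc15, a leucine-rich repeat membrane protein known from TGFβ-driven fibroblasts and the fibroblast list, had 1, 2, 2 and 0 counts in untreated cells and 64, 77, 37 and 55 after TGFβ1. At 2.79 ± 0.956 CPM it had the widest spread beyond counting noise of the 82 genes (chi-square per degree of freedom 6.96). Cdcp1, a transmembrane substrate of Src kinases, had 1, 1, 3 and 3 counts and then 49, 50, 53 and 60. Siglec1, a sialic acid-binding receptor of macrophages, had 2, 3, 3 and 3 counts and then 45, 52, 42 and 58, a ratio of 18.9 (10.4 to 38.6). Siglec1 thus came from one of the higher untreated levels in the set and was 17.2-fold above the floor. Fat2, a giant atypical cadherin, was at 0 in all 4 untreated libraries and had 29, 31, 22 and 33 counts after TGFβ1. Cd40, a costimulatory receptor, and Itga4, the α4 integrin subunit, were at 0.839 and 0.761 CPM, with 15 to 20 and 15 to 17 treated counts. Lrrc55, an auxiliary subunit of potassium channels, and Cnga3, a cyclic nucleotide-gated channel subunit of cone cells, were at 1.15 and 0.888 CPM.

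The 9 genes of intracellular signalling were led by Rgs4. Rgs4 and Rgs14 speed the turn-off of G protein α subunits. Rgs4 had 0, 3, 3 and 3 counts in untreated replicates and 75, 89, 60 and 105 after TGFβ1, or 3.85 ± 0.614 CPM and a ratio of 38.7 (20.1 to 85.3). Rgs14 had no untreated count and 22, 24, 17 and 18 treated counts. Inpp5d, the SHIP1 phosphatase of blood cells, had 1, 3, 1 and 0 counts and then 32, 35, 38 and 32. Pacsin1, a membrane-bending adaptor of neurons, had 2, 3, 1 and 2 counts and then 25, 37, 20 and 30. Inpp5d was 12.1-fold and Pacsin1 9.81-fold above the floor, while the remaining genes of the group, Ankk1, Srcin1, Plk5, Edaradd and Arhgef16, were 9.60 to 4.13-fold above it.

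The 5 secreted proteins stayed low, between 0.526 and 1.10 CPM after TGFβ1. Bglap2, an osteocalcin gene on the bone list, had 1, 3, 3 and 1 untreated counts and 16, 22, 14 and 27 treated ones. Lyz2, the myeloid lysozyme on the leukocyte list, had 3, 1, 1 and 2 counts and then 10, 11, 13 and 10, the lowest mean of the 82 genes and a ratio of 6.65 (2.97 to 17.5). Csf2, which encodes the cytokine GM-CSF, had 1, 2, 2 and 0 counts and then 14, 14, 11 and 22. Mst1, the macrophage-stimulating protein, and R3hdml were at 1.05 and 1.10 CPM.

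Of the 6 DNA-binding transcription factors, Tbx10 (T-box) was at 0 in all untreated libraries and had 12, 14, 10 and 16 counts after TGFβ1. Msx3, a homeobox factor of the dorsal neural tube, was the highest of them, with 0, 0, 0 and 1 untreated and 19, 29, 24 and 46 treated counts, 1.35 ± 0.330 CPM. Sp9, a zinc-finger factor, had 13, 24, 10 and 33 treated counts, a spread beyond counting noise (chi-square per degree of freedom 3.26). Lhx5, a LIM-homeobox factor, Gli1, an effector and transcriptional target of hedgehog signalling, and Foxl1, a forkhead factor, were at 0.977, 0.617 and 0.619 CPM. Foxl1 was close to the limits on both sides: 3, 3, 2 and 1 counts untreated and 12, 10, 13 and 18 treated.

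In the cytoskeleton and cilium group, Nefh, the heavy neurofilament subunit, had 3, 1, 0 and 1 untreated counts and 71, 77, 68 and 97 after TGFβ1, 3.67 ± 0.223 CPM and a ratio of 66.2 (28.1 to 205). Crocc2, related to the ciliary rootlet protein rootletin, had 1, 2, 3 and 1 counts and then 69, 68, 65 and 86. Both varied no more between the treated libraries than counting noise gives (chi-square per degree of freedom 0.27 and 0.31). Myh7, the slow and cardiac β myosin heavy chain, had 3, 1, 2 and 2 counts and then 49, 38, 52 and 54. Ccdc153, a coiled-coil protein, had 1, 2, 0 and 2 counts and then 24, 43, 31 and 50. The keratin Krt13, the lens filament protein Bfsp2, the axonemal proteins Drc7 and Dnah17 and the coiled-coil protein Ccdc13 were at 0.962, 0.906, 0.909, 0.810 and 0.896 CPM.

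**Figure D2:**
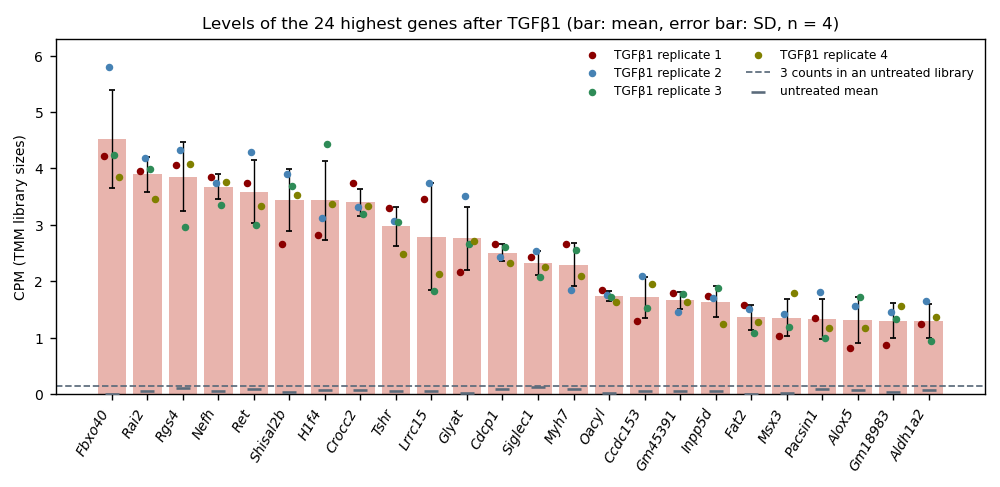
Level of the 24 genes with the highest mean after TGFβ1, in CPM on TMM library sizes. Bars and error bars are the mean and SD of the 4 TGFβ1 libraries, coloured points the single libraries, short grey bars the untreated mean, and the dashed line the average CPM of 3 counts in an untreated library (0.135). Fbxo40 stands highest at 4.52 CPM and Lrrc15 spreads most between libraries, from 37 to 77 counts.

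Metabolic enzymes and transport proteins made up 12 of the 82 genes. Glyat, a mitochondrial enzyme of liver and kidney that joins glycine to acyl groups, had 0, 0, 1 and 0 untreated counts and 40, 72, 54 and 70 after TGFβ1, 2.76 ± 0.555 CPM and 20.4-fold above the floor. Oacyl, a predicted acyltransferase, had 0, 2, 0 and 0 counts and then 34, 36, 35 and 42. Alox5, the 5-lipoxygenase of leukotriene synthesis, had 1, 2, 1 and 2 counts and then 15, 32, 35 and 30. Glyat and Alox5 were lowest in the same treated library, replicate 1. Aldh1a2, which makes retinoic acid, had 2, 2, 1 and 1 counts and then 23, 34, 19 and 35, or 1.30 ± 0.298 CPM. Pm20d1, a secreted enzyme of N-acyl amino acids, had no untreated count and 15, 22, 21 and 17 treated ones. Sec14l4, a lipid-binding protein, had none and then 11, 13, 23 and 18. Both of these enter the set from 0 in every untreated library. The other 6 were Plb1, Padi2, the row shared by Abcc2 and Gm10768, Mgat5b, Hsd17b13 and Mgam, from 1.23 down to 0.529 CPM.

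Fbxo40, the substrate receptor of a ubiquitin ligase known from skeletal muscle, was the highest of the 82 genes in CPM. It had no count in any untreated library and 78, 119, 86 and 99 in TGFβ1 replicates 1 to 4, or 4.52 ± 0.867 CPM. It is on the list of 28 muscle markers, 16 of which had at most 3 counts in every library, among them all of Myog, Myf5, Myf6, Myh1, Myh2 and Myh4. Eef1a2, the translation elongation factor form of muscle and neurons, had 0, 0, 0 and 1 counts and then 21, 24, 31 and 31. Its widely expressed counterpart Eef1a1 fell from 5281 ± 165 to 4099 ± 161 CPM (log2 fold change -0.37, SE 0.04, FDR 6.26e-17). Eef1a2 therefore remained far below Eef1a1, at 1.26 CPM over 2084 exon bases.

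Among the other coding genes, Rai2 (retinoic acid induced 2) had 1 count in each untreated library and 73, 86, 81 and 89 after TGFβ1, 3.89 ± 0.311 CPM and a ratio of 87.0 (33.6 to 321). Shisal2b, a Shisa-like membrane protein, had 0, 1, 2 and 0 counts and then 49, 80, 75 and 91. H1f4, a linker histone, had 2, 2, 2 and 0 counts and then 52, 64, 90 and 87. Rai2 varied little between the treated libraries, while the lowest and highest treated counts of Shisal2b and H1f4 differed more. Phf24, a PHD finger protein, Ankrd65, Spata25, Smco3 and the predicted genes Gm12800 and Gm12794 completed this group, between 0.602 and 1.14 CPM. The 9 non-coding genes and pseudogenes were led by the lincRNA Gm45391, with 1, 1, 2 and 1 counts and then 33, 30, 36 and 42, and the pseudogene Gm18983, with 0, 2, 0 and 1 counts and then 16, 30, 27 and 40. The others of that group were the lincRNA Gm45353, the pseudogene AA684185 and the antisense RNAs 4833422C13Rik, Dhx58os, 4931431C16Rik, Gm10535 and Gm16685, between 0.622 and 1.20 CPM. The 3 immune effectors, H2-Ob (an MHC class II subunit), Oas1f (of the oligoadenylate synthetase family) and Gsdma (a gasdermin), were at 1.05, 0.864 and 0.646 CPM.

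CPM takes no account of gene length. Per kilobase of exon the order of the levels differed: the 252-base lincRNA Gm45353 came first at 4.74 RPKM, followed by Gm45391 (2.89), Shisal2b (2.25), Bglap2 (1.95), H1f4 (1.78), Rai2 (1.62) and Rgs4 (1.24), while Fbxo40 with 5517 exon bases was at 0.820 RPKM. The lowest were Dnah17 (0.0502) and Itga4 (0.0544). The median exon length was 3412 bases for the 82 genes and 4267 for the tested genes outside them.

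**Figure D3:**
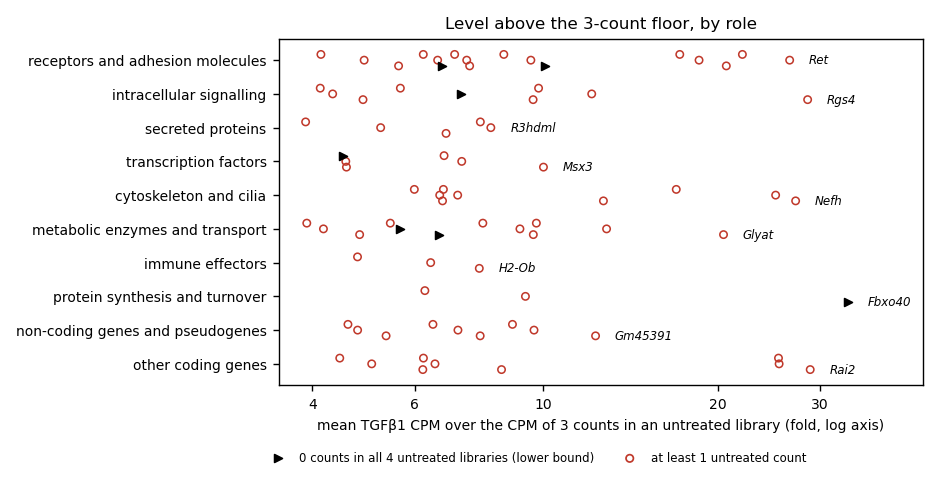
Mean TGFβ1 CPM of each of the 82 genes divided by the average CPM of 3 counts in an untreated library, on a log axis, by role. Triangles are the 7 genes with 0 counts in all untreated libraries and circles the other 75. The fold shown is a lower bound on the observed fold for all 82, and for the triangles no ratio of counts can be given. The highest gene of each role is named: Fbxo40 lies furthest right at 33.5-fold. No gene sorted into the roles of secreted proteins or immune effectors passes 10-fold, while Siglec1, a macrophage receptor sorted with the receptors, lies at 17.2-fold.

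The limits cut a continuous range. Just inside were Mgam (12, 11, 11 and 10 treated counts), Megf10 (13, 10, 11 and 13) and Arhgef16 (12, 12, 10 and 13) beside Lyz2, and, on the untreated side, Plb1 (3 in every library), Gm45353 (2, 3, 3 and 3) and Oas1f (2, 3, 3 and 1) beside Siglec1. Just outside, 12 rows reached 9 counts in their lowest TGFβ1 library, such as H2ac6 (9, 17, 21 and 40), Duox2 (15, 9, 13 and 25) and Gm42940 (20, 19, 9 and 11). Another 30 rows missed because their highest untreated count was 4. Of these Ckmt1, a mitochondrial creatine kinase, had 2, 4, 4 and 4 counts and then 225, 310, 214 and 298, more than any of the 82. H2bc6, a core histone, had 4, 1, 2 and 2 and then 103, 121, 122 and 152.

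Reads shared with other genes limit some of these counts. Of the 82 genes, 34 share at least 1 stretch of 75 bases, the read length, with another gene, and 14 share over 10% of such stretches. Smco3 shares 92.0% with BC049715 on the opposite strand. Bglap2 shares 73.3% with other genes, mostly Bglap, and the neighbours Gm12800 and Gm12794 share 39.97% and 42.7%, mostly with each other. H1f4 shares 28.4%, mostly with a histone gene on the same strand, and Myh7 13.6%, mostly with Myh6, which had at most 10 counts. The antisense RNAs 4833422C13Rik and 4931431C16Rik share 30.2% and 20.1%, mostly with Ssbp2 and Acox3, which stood at 69.6 and 126 CPM after TGFβ1. For the antisense RNA Gm10535, 37.7% of the exon bases overlap exons of Ptprv on the opposite strand, which stood at 53.5 CPM. The strand setting and the treatment of multi-mapped reads in counting are not given in the sources used here, so the counts of these genes are uncertain by an amount that was not tested. No such stretch was shared by the other 48 genes.

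The genes around the members were not used to choose them and were tested. For each member the nearest tested gene on each side within 100 kb was taken, which gave 124 neighbours of 75 members. Calls were made with the likelihood ratio test of edgeR at a Benjamini-Hochberg FDR under 0.05: 62 of the 124 neighbours were higher after TGFβ1, 38 were lower and 24 did not pass. Among all 13818 tested genes 37.6% were higher and 38.0% lower. A log2 fold change over 1.5 was seen in 17 neighbours (13.7%), against 6.05% of all tested genes and 5.53% of those outside the set. The median log2 fold change was 0.14 for the neighbours and -0.01 for all tested genes. Of the neighbours, 12 overlap the body of a member, and reads of such pairs may be shared. Some of those over 1.5, such as H2bc6, Ptprv and Acox3, are among these 12, and no share over 1.5 is given without them. Of the other 112, 53 were higher (47.3%), and when the nearest gene without overlap was taken for every member, 48.0% of 123 were higher.

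H2bc6, which overlaps H1f4 on the same strand, rose most of the neighbours, from 0.105 ± 0.0647 to 5.84 ± 0.187 CPM (log2 fold change 5.79, SE 0.49). Sned1, a secreted matrix glycoprotein gene 4769 bases downstream of Crocc2 on the same strand, rose from 0.178 ± 0.0645 to 2.98 ± 0.785 CPM (4.02, SE 0.40). H2-Eb1, an MHC class II β chain in the same gene cluster as H2-Ob, rose from 0.359 ± 0.0840 to 5.93 ± 0.802 CPM (4.00, SE 0.28). Other neighbours that rose were Vwa1, a matrix protein next to Ankrd65 (3.67, SE 0.21), Ptprv, on the opposite strand of Gm10535 (3.41, SE 0.10), Bglap, 4802 bases from Bglap2, with which it shares sequence and may share reads (3.31, SE 0.45), and Lgr6, an R-spondin receptor near Gm10535 (3.01, SE 0.33). Each of these passed the test. Mgp, the inhibitor of calcification 36983 bases from Smco3, fell from 8.01 ± 2.85 to 0.517 ± 0.120 CPM (-3.94, SE 0.30). Rises and falls thus both lay beside genes of the set, and rises were the more frequent.

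**Figure D4:**
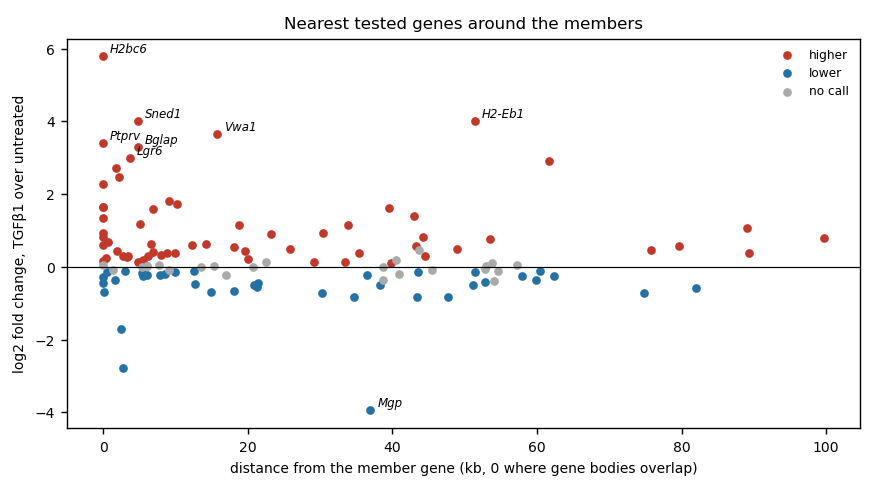
Log2 fold change (TGFβ1 over untreated) of the 124 nearest tested genes against their distance from the member gene in kb, with overlapping genes at 0. Red points were higher, blue lower and grey points did not pass the test. Of the 8 named genes with the largest change, H2bc6 (5.79) and Ptprv (3.41) overlap their members and Mgp (-3.94) is the only one that fell.

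Genes that share a member's name stem (the symbol without its closing number and letters) were compared next, as a rough guide to relatives. Such relatives were found for 44 members, 278 in all, of which 159 were tested outside the set: 77 were higher (48.4%, beside 37.6% of all tested genes), 46 lower and 36 did not pass. A shared stem is not homology, and the 16 Dhx genes that share a stem with the antisense RNA Dhx58os are RNA helicases. A further 117 did not pass edgeR's filter on low counts: for Grm8 none of 7 relatives, for Padi2 none of 4 and for Cnga3 none of 3 could be tested.

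Sec14l5 rose most of the relatives, from 0.327 ± 0.0740 to 14.6 ± 1.59 CPM (log2 fold change 5.47, SE 0.29), and its counts of 283, 339, 274 and 338 after TGFβ1 were above those of Sec14l4. The collagen-binding integrin subunits Itga2 and Itga11 rose beside Itga4, by log2 fold changes of 5.05 (SE 0.41) and 2.29 (SE 0.12), and in all 6 of 9 tested integrin α relatives were higher and 3 lower, beside 37.6% and 38.0% of all tested genes. The myosin heavy chain Myh15 rose from 0.717 ± 0.286 to 24.1 ± 1.94 CPM (5.03, SE 0.20), while the cardiac Myh6 was too low to test. Tbx6, a mesoderm factor, rose by 3.44 (SE 0.39). Alox12, a lipoxygenase of platelets and skin, rose by 2.42 (SE 0.32) beside Alox5, and Arhgef4, a guanine nucleotide exchange factor, by 2.37 (SE 0.12). These relatives were named for the size of their change, so a rise in each named family is no finding. Of the tested relatives, 1 was higher and 1 lower for Sec14l4, 3 and 3 for Tbx10, 13 and 4 for Arhgef16 and 4 and 0 for Myh7. Of the 6 relatives of Alox5 only 1 was tested.

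Other relatives fell or rose, and some of the falls lay in families that also held a rise. Arhgef39 fell by 2.85 on the log2 scale (SE 0.16), and Phf19, a Polycomb-associated protein, fell by 2.82 (SE 0.14). Megf6 fell by 2.77 (SE 0.19) and Mgat3, a glycosyltransferase, fell by 2.18 (SE 0.08). Of the relatives of Fat2, Fat1 rose from 352 ± 14.4 to 1057 ± 83.7 CPM (1.59, SE 0.06) and Fat4 rose as well (0.97, SE 0.12), while Fat3 was at 0 in all 8 libraries. Of the relatives of Gli1, Gli2 fell from 12.6 ± 0.145 to 7.08 ± 0.926 CPM (-0.83, SE 0.10) and Gli3 was slightly higher (0.12, SE 0.06, FDR 0.0338). Msx1 fell from 17.3 ± 2.99 to 7.01 ± 1.11 CPM (-1.29, SE 0.14) as Msx3 appeared, and the counts of Msx2 stayed between 1 and 5. Aldh1a3 rose (1.71, SE 0.14) and Aldh1a7 fell (-1.05, SE 0.25) beside Aldh1a2.

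Genes of the TGFβ pathway and its known targets, none of which is in the set, give the response of the same libraries. Of 32 tested, 21 were higher, 7 lower and 4 did not pass, beside backgrounds of 37.6% and 38.0%. The largest rises were of Ltbp2, a latent TGFβ-binding protein (log2 fold change 2.63, SE 0.05), Ccn2, a matricellular protein (2.06, SE 0.06), and Acta2, smooth muscle actin (1.89, SE 0.04). The largest falls were of Smad6, an inhibitory SMAD (-1.04, SE 0.19), Id3 (-0.94, SE 0.09) and Smad4 (-0.43, SE 0.04). The tested genes were already expressed without treatment, Acta2 at 264 ± 9.92 CPM. Of the 33 genes listed, Tgfbi, a TGFβ-induced gene, had at most 3 counts in every library of both groups and was not tested.

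Markers of other cell types that could bear on single members were counted in the same way, outside the set, and the shares of all tested genes to set beside each list are again 37.6% higher and 38.0% lower. Of the fibroblast and mural list 7 of 10 tested were higher and 3 lower. Cthrc1 (2.45, SE 0.12) was among those that rose and Dcn (-1.91, SE 0.05) and Pdgfra (-1.47, SE 0.06) among those that fell, and the summed level of the list was 650 to 695 CPM untreated and 384 to 417 CPM treated. Of the muscle list 3 of 5 tested were higher, Des (2.09, SE 0.16), Ryr1 (2.01, SE 0.46) and Fbxo32 (1.62, SE 0.09), and 1 was lower, Actn3 (-0.55, SE 0.10). The sums of this list were 19.1 to 21.7 CPM untreated and 41.2 to 44.6 CPM treated. Of the bone list 2 of 8 were higher, Bglap and Comp, and 4 lower, with sums of 349 to 378 and 263 to 326 CPM. Of the neuronal list 6 of 9 were higher and 1 lower (42.4 to 44.1 and 59.3 to 65.5 CPM), and of the epithelial list 6 of 9 were higher and 2 lower (62.8 to 76.8 and 104 to 110 CPM). Of the leukocyte list 3 of 4 were higher, Csf1r, Cd68 and Cd14, and none lower (17.3 to 20.99 and 33.4 to 36.1 CPM). The part of other cell types in the counts of Lrrc15, Fbxo40, Bglap2, Adgrb1 and Lyz2 was not tested.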

How the data were processed

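RNA was poly(A)-selected with a stranded kit and sequenced as 75-base single reads. The authors deposited raw counts of reads per gene, with no normalization, for all 8 libraries. The submitters' processing notes name bcl2fastq 2.20.0.422, STAR 2.7.3a, featureCounts 1.5.1 and the build GRCm38 (mm10). The annotation release and strand setting are not given in the sources used here.

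Groups came from the labels. Members were the rows that met the count limits, and any of them may be named, but a few items are not reported here. The members, roles and gene lists were chosen with earlier results of these data known. Counts in every library are given for the 24 highest members, members on a list and those at the limits, and tested neighbours, relatives and list genes by the largest change. Other genes were fitted in edgeR 4.0.16 (R 4.3.3) with filterByExpr, TMM and the likelihood ratio test named in the study's methods, over 13818 genes, and called at an FDR under 0.05. The fit was checked on simulated data. DESeq2 1.42.0, the quasi-likelihood test, other scalings and filters, a replicate block and leaving out each library were alternatives. Positions and overlaps used GENCODE M21, which held all 82 genes. Intervals and floors cover counting error only. The chi-square per degree of freedom compares counts between libraries with Poisson noise.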

Additional observations from a re-analysis of the deposited data

Results flagged for a closer look

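In 5 of the 82 genes the CPM of 1 of the 4 TGFβ1 libraries passed Dixon's criterion. Chance meets it in about 1 of 20 groups, which is close to this number, and the counts are those that chose the genes. Replicate 2 was the high library in 4 of them. Mc1r had 33 counts there, 1.61 CPM, with a median of 0.738 CPM in the other libraries. The antisense RNA 4931431C16Rik had 29 counts, 1.41 CPM beside a median of 0.689. The spread of these genes was beyond counting noise (chi-square per degree of freedom 4.28 and 3.09). The other 3 were within it (0.253 for Gsdma, 0.0761 for Hsd17b13 and 0.360 for Ccdc13). Gsdma had 16 counts, 0.779 CPM beside 0.595, and Hsd17b13 had 13 counts, 0.633 CPM beside 0.541, while replicate 4 held 16 and 14 counts of these genes in a larger library. In Ccdc13 replicate 1 was low, with 13 counts and 0.703 CPM beside a median of 0.970. None of these 5 genes loses its place in the set without that library, since the limits hold in each library.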

How the results depend on the processing

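The number of genes depends on the limits. With no untreated count allowed 7 genes remained, with at most 1 per library 31 and with at most 5 per library 143, and with at least 5 TGFβ1 counts 219 or at least 20 counts 24, in place of 82. The same limits on counts scaled to library size gave 75 genes, 69 of them shared with the 82. Leaving out each library in turn gave 83 to 103, but this can only keep or add genes, because the limits hold in every library. The median fold above the floor was 6.75 to 7.46 without each library and 28.9 when the floor was 3 counts over the whole group instead of per library. Of the neighbours within 20 kb, 40 of 68 were higher (58.8%), and the fewer neighbours follow from the distance. Over the other alternatives 56 to 64 of the neighbours, 70 to 99 of the relatives and 19 to 21 of the TGFβ genes were higher. The background moved as well: the lowest of each came from total counts, with 4627 of all tested genes higher. The 99 relatives came from the fit with no filter on low counts, where more genes were tested and 6385 were higher. The correlations of deviations of same-numbered libraries were -0.19 to -0.03, so the numbers pair nothing. With a replicate block 5075 genes were higher and 5077 lower (without it 5198 and 5251), and 61 neighbours, 74 relatives and 21 TGFβ genes were higher. At this depth 1 count is up to 0.0541 CPM, so an untreated level below that is not resolved in a single library.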

Other observations

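The opposite pattern, at least 10 counts in every untreated library and at most 3 in every TGFβ1 library, was met by 12 rows (0.0216% of the table, beside 0.164% for genes that appeared, before names were left out). Klf15, a Krüppel-like transcription factor, had 61, 65, 45 and 38 untreated counts and 2, 2, 2 and 3 after TGFβ1. Trdn, the triadin of muscle calcium release, had 41, 42, 31 and 25 and then 0, 0, 0 and 3. Rassf9 had 29, 45, 31 and 20 and then 0, 1, 1 and 0, and Depp1, a FOXO target, had 20, 28, 17 and 16 and then none in any library. The secretogranin Scg2, the fatty acid hydroxylase Fa2h, Dhdh and 5 predicted genes made up the rest. These genes were chosen by their counts and carry no test.

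Few of the 82 genes lay close to each other. There were 6 pairs within 1 Mb, among them Gm12800 and Gm12794 (28499 bases apart), Cd40 and Spata25 (227090), Lhx5 and Oas1f (406144), Dhx58os and Krt13 (565851), and Nefh and Sec14l4 (890730).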
